A study of Solanum lycopersicum with 18 samples.

Results

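Small heat shock proteins are chaperones that bind unfolding proteins without using ATP and hold them until HSP70 and HSP101 can refold them. In plants they form classes by cellular compartment, with classes I and II in the cytosol and HSP21 in the plastid. In tomato, HSP21 is known from heat-stressed leaves and from ripening fruit, where chloroplasts turn into chromoplasts. HSFA2 is a heat stress transcription factor that accumulates under heat and switches on chaperone genes, among them those of small heat shock proteins.

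The genes described here are 10 of the 35802 gene identifiers in an expression table of tomato fruit. They are 9 small heat shock protein genes and the HSFA2 gene, taken by identifier and not by a cut on their values. Earlier results of these data were known when they were chosen. HSP21 is Solyc03g082420 and HSFA2 is Solyc08g062960. The identifiers, whose first digits give the chromosome, place 4 of the other genes on chromosome 6 (Solyc06g076520, Solyc06g076540, Solyc06g076560 and Solyc06g076570). A pair lies on chromosome 9 (Solyc09g015000 and Solyc09g015020) and a pair on chromosome 8 (Solyc08g062340 and Solyc08g062450). The files do not say which class each gene belongs to, so the genes are grouped by position. Small heat shock protein genes that lie side by side can be nearly identical copies. The counting program is not given in the sources used here, so how reads were split within a cluster is uncertain.

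RNA was sequenced from sliced whole fruits of 3 genotypes at 45 and 35 DAP, with 3 libraries in each of 6 groups. TF18 is a single transgenic line, in cultivar Ailsa Craig, with FUL1 and FUL2 suppressed, and the labels do not name the promoter of its transgene. The rin mutant is LA3754 in the Ailsa Craig background, and the wild type is Ailsa Craig itself. MADS-box transcription factors drive ripening in tomato, RIN, FUL1 and FUL2 among them, and the rin mutation blocks it. The glasshouse was kept at 26°C during 16 h of light and at 20°C during 8 h of darkness, and no group was labelled as heat-treated. The wild type was pink at 45 DAP and green at 35 DAP. Read totals ran from 5740900 to 17334324 per library. Levels are RPKM, reads scaled by gene length and library total, and because the tissue is bulk, fewer cells with a transcript and less transcript per cell cannot be told apart. The labels do not say whether separate plants gave the 3 libraries of each group, so p-values measure only how far these libraries differ, and that may be technical.

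The labels were checked on the targeted genes, by identifiers written down from general knowledge. The FUL1 identifier, Solyc06g069430, held 9.18 to 31.3 RPKM in TF18 at 45 DAP, against 975 to 1100 in the wild type. The FUL2 identifier, Solyc03g114830, held 42.2 to 60.8 RPKM in TF18 at 45 DAP, against 158 to 202 in the wild type. The RIN identifier, Solyc05g012020, held 1899 to 2811 RPKM in rin at 45 DAP, against 576 to 886 in the wild type. Its level thus does not mark the mutant. In TF18 at 45 DAP it held 26.7 to 64.4 RPKM, so TF18 fruits were low in RIN as well as in FUL1 and FUL2. The FUL1 identifier held 167 to 293 RPKM in rin at 45 DAP.

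All 10 genes passed the filter for testing, at least 1 RPKM in at least 3 libraries, and all were at or above 1 RPKM in all 18 libraries. The lowest value, 1.29 RPKM for Solyc08g062340 in TF18 replicate 1 of 45 DAP, rested on 8 reads. The highest, 15207 RPKM for Solyc06g076520 in rin replicate 3 of 45 DAP, rested on 83291 reads and made that gene rank 4 of all genes in the library. Over the 18 libraries the highest value of HSP21 was 2759 times its lowest, that of Solyc08g062340 2035 times and that of Solyc06g076560 1641 times. The narrowest ranges were those of HSFA2, 30.1 times, and Solyc06g076520, 81.2 times.

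Much of this range lay between libraries of one group. In 4 groups a single library held the highest value of all 10 genes: TF18 replicate 2 of 45 DAP, rin replicate 3 of 45 DAP, and wild-type replicate 2 of both 45 and 35 DAP. In rin at 35 DAP replicate 1 was highest for 8 of the 10, and in TF18 at 35 DAP replicate 2 was highest for 7. Replicate 1 of TF18 and of rin at 45 DAP and replicate 3 of TF18 at 35 DAP were lowest for all 10.

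The 9 small heat shock protein genes together took 3.01% of all reads in rin replicate 3 of 45 DAP (95% Wilson interval 2.999% to 3.019%) and 0.0296% in rin replicate 1 of the same age (0.0288% to 0.0305%). The intervals cover counting error only, and reads without molecular identifiers are not independent molecules. In TF18 at 45 DAP they took 0.0132% to 0.524%, and in the wild type at 45 DAP 0.190% to 1.501%. At 35 DAP their share was 0.0219% to 0.122% in TF18, 0.0688% to 0.314% in rin and 0.0218% to 0.157% in the wild type. The median over the 10 genes of the ratio of the highest to the lowest library was 62.2 in TF18, 135 in rin and 13.9 in the wild type at 45 DAP. At 35 DAP it was 11.6 in TF18, 4.47 in rin and 6.86 in the wild type. The spread between libraries was thus widest in the groups with the extreme libraries, and it sets the error of every comparison.

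**Figure D1:**
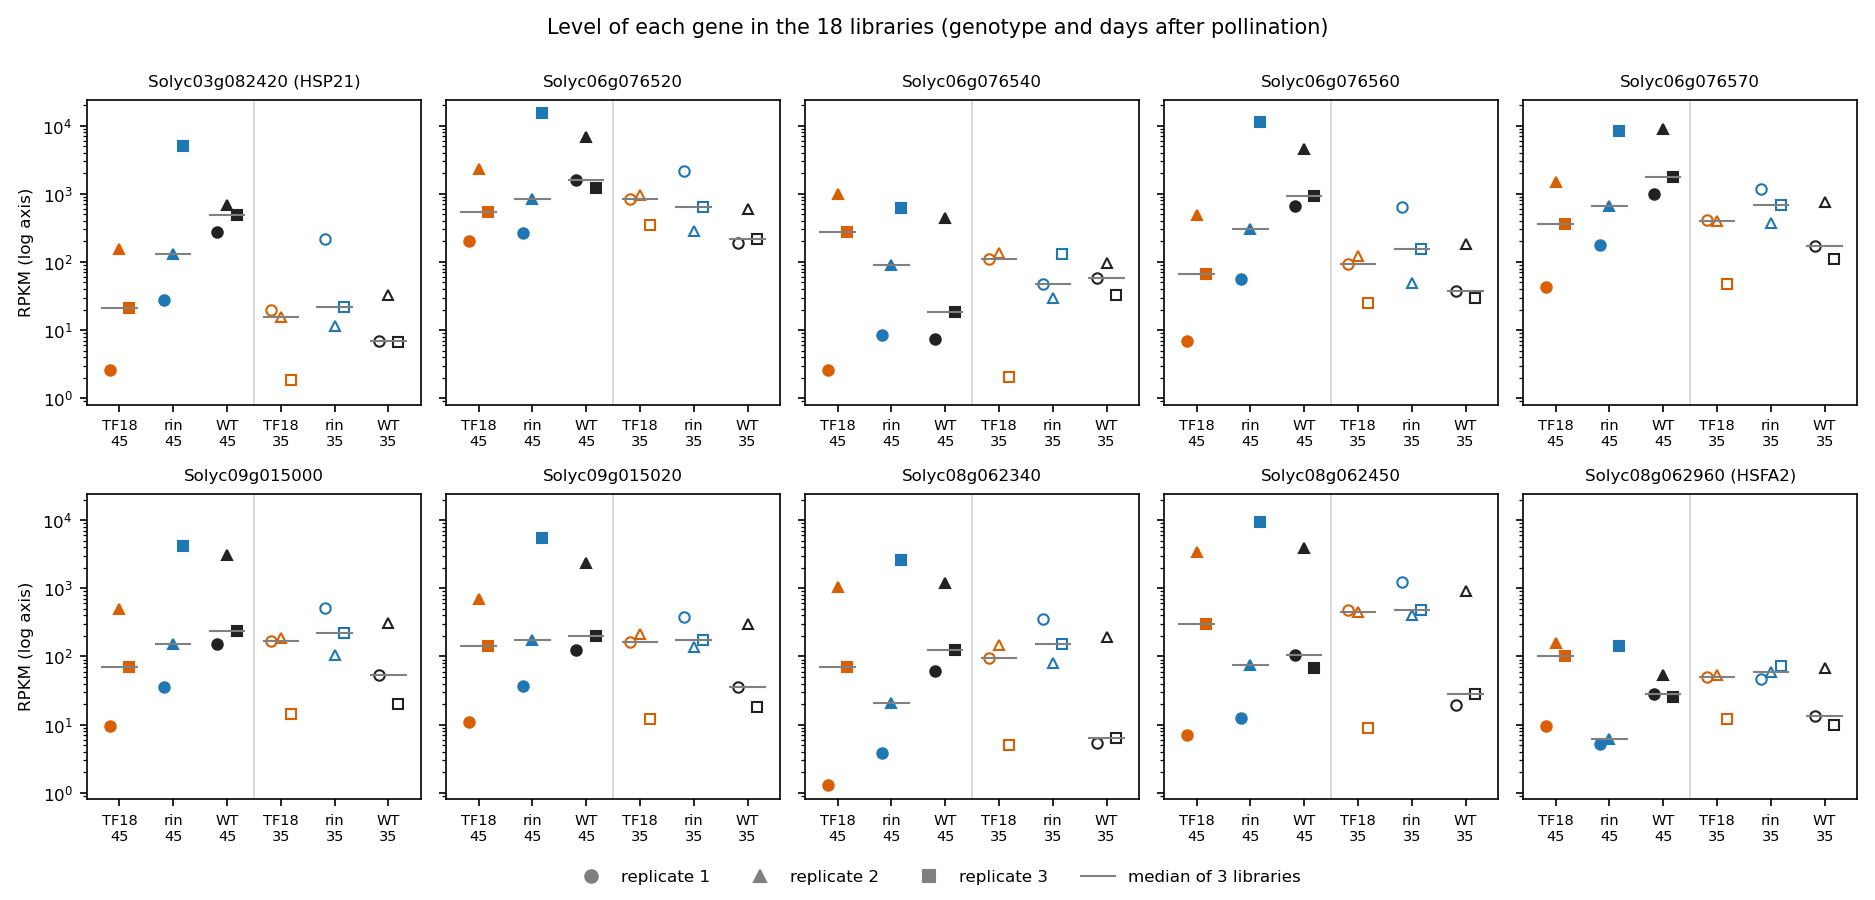
Level of each of the 10 genes in RPKM (log axis) in every library, by genotype and days after pollination, with filled symbols for 45 DAP, open symbols for 35 DAP, a symbol shape for each replicate number and a line at the median of 3 libraries. HSP21 in the wild type sits between 274 and 696 RPKM at 45 DAP, above all 3 libraries of 35 DAP, while rin replicate 3 of 45 DAP stands far above the other rin libraries for all 10 genes.

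In the wild type the ripening interval was the clearest for HSP21. HSP21 held 274, 696 and 488 RPKM in replicates 1, 2 and 3 at 45 DAP, against 6.93, 32.9 and 6.64 RPKM at 35 DAP. The lowest ripe library stood far above the highest green one, so the ages did not overlap, and the reads behind the values numbered 2026 to 2830 at 45 DAP and 72 to 392 at 35 DAP. HSP21 rose with a log2 fold change of 5.16 on the log2(RPKM + 1) scale (SE 1.66, adjusted p = 0.0143 by limma). The call held when any one of the 6 wild-type libraries was left out, with log2 fold changes from 4.79 to 5.87 and adjusted p from 0.0166 to 0.0456 by limma.

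On chromosome 6, Solyc06g076560 followed the same course. It held 660, 4611 and 916 RPKM in the wild type at 45 DAP, against 37.2, 182 and 29.6 RPKM at 35 DAP. The ages did not overlap, and the gene rose with a log2 fold change of 4.56 (SE 1.71, adjusted p = 0.0310 by limma). The rise was no longer called without wild-type replicate 2 of 45 DAP (log2 fold change 3.70, adjusted p = 0.114 by limma), nor without replicate 1 (4.23, adjusted p = 0.0817 by limma) or replicate 3 (4.07, adjusted p = 0.0908 by limma) of 35 DAP.

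Solyc06g076520, the most abundant of the 10 genes by its median over all libraries (739 RPKM), held 1588, 6838 and 1228 RPKM in the wild type at 45 DAP, against 187, 607 and 214 RPKM at 35 DAP. Its ages did not overlap either, and it rose with a log2 fold change of 3.03 (SE 1.25, adjusted p = 0.0461 by limma). This call lay closest to the threshold. It was lost without replicate 1 or 3 of 35 DAP or replicate 1 or 2 of 45 DAP, where the adjusted p ran from 0.0606 to 0.172 by limma, with quantile normalization (adjusted p = 0.0838 by limma), with replicate number as a block (adjusted p = 0.0532 by limma), with library weights (adjusted p = 0.0515 by limma) and without a filter on low values (adjusted p = 0.0664 by limma).

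Solyc06g076570 held 979, 8979 and 1776 RPKM in the wild type at 45 DAP, against 170, 763 and 112 RPKM at 35 DAP. The ages did not overlap, but the log2 fold change of 3.35 (SE 1.43, adjusted p = 0.0539 by limma) missed the threshold. It passed with TMM-type scaling (log2 fold change 3.97, adjusted p = 0.0303 by limma), when the fit held only the groups compared (adjusted p = 0.0217 by limma), with replicate number as a block (adjusted p = 0.0483 by limma) and without wild-type replicate 2 of 35 DAP (4.17, adjusted p = 0.0374 by limma) or replicate 1 of 45 DAP (4.03, adjusted p = 0.0448 by limma).

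Solyc06g076540, in the middle of the same cluster, stood apart. It held 7.41, 438 and 18.3 RPKM in the wild type at 45 DAP, against 57.7, 95.3 and 33.0 RPKM at 35 DAP. A pair of ripe libraries lay below all green ones and the other ripe library far above them. The log2 fold change was -0.48 (SE 2.05, adjusted p = 0.854 by limma), and 0.11 with TMM-type scaling.

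The pair on chromosome 9 behaved alike. Solyc09g015000 held 151, 3112 and 233 RPKM in the wild type at 45 DAP, against 52.8, 309 and 20.0 RPKM at 35 DAP. Solyc09g015020 held 126, 2349 and 197 RPKM at 45 DAP, against 35.7, 302 and 17.8 RPKM at 35 DAP. For both genes green replicate 2 lay above ripe replicates 1 and 3, so the ages overlapped. Their log2 fold changes were 2.77 (SE 1.76, adjusted p = 0.183 by limma) and 2.71 (SE 1.82, adjusted p = 0.206 by limma).

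On chromosome 8, Solyc08g062340 held 61.1, 1201 and 123 RPKM in the wild type at 45 DAP, against 5.30, 193 and 6.27 RPKM at 35 DAP. Solyc08g062450 held 104, 3976 and 68.3 RPKM at 45 DAP, against 19.1, 900 and 28.0 RPKM at 35 DAP. Here too green replicate 2 exceeded ripe replicates 1 and 3. The log2 fold changes were 3.34 (SE 2.35, adjusted p = 0.228 by limma) and 1.93 (SE 2.55, adjusted p = 0.528 by limma).

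HSFA2, the regulator, overlapped between the ages of the wild type. It held 28.3, 54.1 and 25.6 RPKM at 45 DAP, against 13.2, 68.0 and 9.89 RPKM at 35 DAP. The highest of the 6 values was a green one, and the log2 fold change was 0.67 (SE 1.15, adjusted p = 0.630 by limma).

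In all, 3 of the 10 genes were called higher in the wild type at 45 DAP than at 35 DAP, where 7.54% of the 20658 genes tested were called higher. None was called lower, where 34.2% were, and 4 genes had an unadjusted limma p under 0.05. The median log2 fold change of the 10 genes was 2.90, beside -0.58 over all genes tested. For 4 genes, HSP21 and the chromosome 6 genes other than Solyc06g076540, the 3 ripe libraries all lay above the 3 green ones, as they did for 15.7% of all genes. Scaling moved the median of all genes to -0.17 (TMM-type) and 0.08 (quantile normalization), and 4 and 2 of the 10 were called higher under these.

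At 45 DAP the FUL1 and FUL2-suppressed fruits were set against wild-type fruits of the same age. HSP21 held 2.55, 153 and 21.3 RPKM in TF18, against 274, 696 and 488 RPKM in the wild type. Every TF18 library lay below every wild-type library, and HSP21 was lower in TF18 by a log2 fold change of -4.30 (SE 1.66, adjusted p = 0.0333 by limma). Solyc06g076560 held 6.96, 490 and 66.5 RPKM in TF18, against 660, 4611 and 916 RPKM in the wild type. Its groups did not overlap, and it was lower in TF18 by a log2 fold change of -4.46 (SE 1.71, adjusted p = 0.0325 by limma).

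These 2 genes were the ones called lower in TF18, where 6.19% of all genes were called lower, and also the ones with all TF18 libraries below the wild-type libraries, as 11.3% of all genes had. None of the 10 was called higher, where 40.3% of all genes were. The median log2 fold change of the 10 was -1.91, beside 0.75 over all genes, whose median became 0.13 after TMM-type scaling and -0.02 under quantile normalization. Both calls were lost when certain single libraries were left out. The log2 fold changes stayed negative, from -5.67 to -2.96 for HSP21 and from -5.93 to -2.95 for Solyc06g076560. Without wild-type replicate 2, TF18 replicate 1 or TF18 replicate 3 none of the 10 was called. Without wild-type replicate 3 only Solyc06g076560 was (log2 fold change -4.77, adjusted p = 0.0485 by limma), and without TF18 replicate 2 Solyc06g076570 joined both genes (-4.33, adjusted p = 0.0222 by limma).

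The other chromosome 6 genes split at this age. Solyc06g076570 held 42.6, 1474 and 355 RPKM in TF18, against 979, 8979 and 1776 RPKM in the wild type (log2 fold change -3.14, SE 1.43, adjusted p = 0.0665 by limma). One TF18 library reached into the wild-type range. Solyc06g076520 held 201, 2340 and 549 RPKM in TF18, against 1588, 6838 and 1228 RPKM in the wild type (log2 fold change -1.89, SE 1.25, adjusted p = 0.194 by limma). Solyc06g076540 held 2.59, 999 and 278 RPKM in TF18, against 7.41, 438 and 18.3 RPKM in the wild type (log2 fold change 1.27, SE 2.05, adjusted p = 0.606 by limma). It was 1 of only 2 genes of the 10 with a positive sign, and its libraries were spread over more than the wild-type range.

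The other gene with a positive sign was HSFA2, which held 9.48, 158 and 99.8 RPKM in TF18 at 45 DAP, against 28.3, 54.1 and 25.6 RPKM in the wild type. A pair of TF18 libraries lay above the wild type and the other lay below it. The log2 fold change was 0.66 (SE 1.15, adjusted p = 0.635 by limma) as deposited and -0.16 with TMM-type scaling, so its sign turned with the scaling. On chromosomes 8 and 9, TF18 held 7.10 to 3447 RPKM of Solyc08g062450, 1.29 to 1043 of Solyc08g062340, 9.48 to 505 of Solyc09g015000 and 10.8 to 700 of Solyc09g015020. The wild-type ranges were 68.3 to 3976, 61.1 to 1201, 151 to 3112 and 126 to 2349 RPKM of the same genes. The groups overlapped for all 4, with log2 fold changes from -2.73 to -0.60 and adjusted p from 0.185 to 0.850 by limma.

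In rin the same comparison was dominated by 1 library. HSP21 held 28.0, 131 and 5107 RPKM in rin at 45 DAP, against 274, 696 and 488 RPKM in the wild type. A pair of rin libraries lay below all wild-type libraries, while replicate 3 exceeded the highest of them. The log2 fold change was -0.75 (SE 1.66, adjusted p = 0.746 by limma). Solyc06g076520 held 270, 847 and 15207 RPKM, Solyc06g076560 56.0, 300 and 11417 RPKM and Solyc06g076570 176, 673 and 8321 RPKM in rin. For each of these genes 2 rin libraries lay under the wild-type range, as for HSP21, and replicate 3 lay above it, except for Solyc06g076570, whose replicate 3 lay inside it near the top. Solyc06g076540 held 8.41, 90.7 and 628 RPKM in rin, within and above the wild-type range. The log2 fold changes of the chromosome 6 genes were -0.64 for Solyc06g076520, -1.28 for Solyc06g076560, -1.33 for Solyc06g076570 and 0.98 for Solyc06g076540.

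On chromosomes 9 and 8 rin replicate 3 again lay above the wild-type range. Solyc09g015000 held 35.6, 153 and 4187 RPKM in rin at 45 DAP, against 151, 3112 and 233 RPKM in the wild type. Solyc09g015020 held 36.3, 174 and 5517 RPKM in rin, against 126, 2349 and 197 RPKM in the wild type. For both, rin replicate 2 lay inside the wild-type range, and the log2 fold changes were -0.74 and -0.24. Solyc08g062340 held 3.77, 21.0 and 2618 RPKM in rin, against 61.1, 1201 and 123 RPKM in the wild type. Solyc08g062450 held 12.6, 75.9 and 9316 RPKM in rin, against 104, 3976 and 68.3 RPKM in the wild type. Their log2 fold changes were -1.69 and -0.52. HSFA2 held 5.25, 6.13 and 144 RPKM in rin, against 28.3, 54.1 and 25.6 RPKM in the wild type, so a pair of rin libraries lay below the wild-type range and the other above it (log2 fold change -0.91).

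None of the 10 genes was called in rin against the wild type at 45 DAP by limma, none had an unadjusted p under 0.05 and none was without overlap. Over all genes 25.9% were called higher and 3.42% lower, and 41.8% had all rin libraries above and 7.45% all rin libraries below those of the wild type. The median log2 fold change of the 10 was -0.75, beside 0.49 over all genes (0.09 after TMM-type scaling and -0.04 under quantile normalization). Leaving out any 1 library, rin replicate 3 included, made no call in this comparison.

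The interval from 35 to 45 DAP was then followed within each mutant. In rin, HSP21 held 28.0, 131 and 5107 RPKM at 45 DAP, against 214, 11.4 and 21.5 RPKM at 35 DAP, a log2 fold change of 2.78 (SE 1.66, adjusted p = 0.229 by limma). One green library lay above a pair of the later ones. Of the 10 genes none was called higher, where 7.49% of all genes were, and none lower, where 8.84% were. None had an unadjusted limma p under 0.05. Their median log2 fold change was 0.53, beside 0.04 over all genes.

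HSFA2 ran the other way in most rin libraries. It held 5.25, 6.13 and 144 RPKM in rin at 45 DAP, against 46.7, 59.0 and 72.8 RPKM at 35 DAP. A pair of later libraries lay well below all green ones and replicate 3 above them. With all libraries the log2 fold change was -1.68 (SE 1.15, adjusted p = 0.299 by limma). Without replicate 3 of 45 DAP it was called lower, at -3.16 (adjusted p = 0.0319 by limma), and with library weights at -2.77 (adjusted p = 0.0202 by limma). No other gene of the 10 was called in this interval under these settings. The chromosome 8 genes had negative signs as HSFA2 had, at -1.32 for Solyc08g062340 and -1.53 for Solyc08g062450. The chromosome 6 and 9 genes had positive ones, at 1.76 for Solyc06g076560, 1.04 for Solyc06g076520, 0.58 for Solyc06g076570, 0.49 for Solyc06g076540, 0.31 for Solyc09g015000 and 0.64 for Solyc09g015020.

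In TF18, HSP21 held 2.55, 153 and 21.3 RPKM at 45 DAP, against 19.4, 15.6 and 1.85 RPKM at 35 DAP, a log2 fold change of 1.22 (SE 1.66, adjusted p = 0.967 by limma). A pair of later libraries lay above all green ones, and the other lay among them. None of the 10 genes was called, where 0.566% of all genes were called higher and 0.145% lower, and none had an unadjusted limma p under 0.05. Their log2 fold changes ran from -0.12 to 1.49 with a median of 0.48, beside 0.08 over all genes. After HSP21 and Solyc06g076540 (1.49) came HSFA2 (0.74), Solyc08g062450 (0.64), Solyc06g076570 (0.50), Solyc09g015020 (0.45) and Solyc08g062340 (0.33). Solyc06g076520 (-0.04, but 0.12 with quantile normalization), Solyc06g076560 (-0.07) and Solyc09g015000 (-0.12) lay near 0.

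The difference of the changes was tested directly. For TF18 minus the wild type, HSP21 had -3.94 (SE 2.35, adjusted p = 0.177 by limma) and Solyc06g076560 had -4.62 (SE 2.42, adjusted p = 0.126 by limma). For rin minus the wild type, HSP21 had -2.38 (SE 2.35, adjusted p = 0.464 by limma) and Solyc06g076560 had -2.80 (SE 2.42, adjusted p = 0.397 by limma). None of the 10 genes was called in either test, and none had an unadjusted limma p under 0.05. Of all genes tested, the change in TF18 was called higher for 33.6% and lower for 6.03%, and the change in rin for 23.2% and 2.97%. Both tests share the wild-type libraries. With library weights HSP21 (-4.50, adjusted p = 0.0497 by limma) and Solyc06g076560 (-4.69, adjusted p = 0.0437 by limma) were called lower for TF18 minus the wild type. Both were also called there with either covariate described further on. For rin minus the wild type, leaving out rin replicate 3 of 45 DAP made HSFA2 called lower (-3.82, adjusted p = 0.0380 by limma).

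For TF18 minus the wild type the differences of the other genes were -3.07 for Solyc06g076520, -2.85 for Solyc06g076570, -2.89 for Solyc09g015000, -2.26 for Solyc09g015020, -3.02 for Solyc08g062340 and -1.28 for Solyc08g062450, with 1.96 for Solyc06g076540 and 0.07 for HSFA2, whose sign turned with TMM-type scaling (-0.62) and quantile normalization (-0.22). For rin minus the wild type they were -1.99 for Solyc06g076520, -2.78 for Solyc06g076570, -2.45 for Solyc09g015000, -2.08 for Solyc09g015020, -4.67 for Solyc08g062340, -3.46 for Solyc08g062450 and -2.34 for HSFA2, with 0.97 for Solyc06g076540.

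At 35 DAP no gene of the 10 was called in any comparison of genotypes, and none had an unadjusted limma p under 0.05. Among all genes, TF18 fruits had 2.71% called higher and 4.38% lower against wild-type fruits, and rin fruits had 0.0581% higher and 0.0339% lower. TF18 against rin had 2.89% higher and 2.62% lower. All 10 genes had a positive sign in rin against the wild type, with log2 fold changes from 0.01 to 2.97, and all 10 a negative sign in TF18 against rin, from -2.25 to -0.17. These signs are not independent of each other, because the genes move together between libraries. In rin against the wild type the chromosome 8 genes Solyc08g062340 (2.97) and Solyc08g062450 (2.93) had the highest values, Solyc06g076540 (0.01) had the lowest, and the others ran from 1.34 for Solyc06g076520 through 1.43 for HSFA2, 1.45 for Solyc06g076570, 1.52 for Solyc06g076560, 1.62 for HSP21 and 1.71 for Solyc09g015000 to 1.84 for Solyc09g015020. In TF18 against the wild type, Solyc06g076520 (1.18) and Solyc08g062340 (1.09) had the highest values, Solyc06g076540 (-0.69), HSP21 (-0.36) and Solyc06g076570 (-0.28) were negative, and the others stood at 0.15 for Solyc09g015000, 0.17 for Solyc06g076560, 0.38 for Solyc09g015020, 0.59 for HSFA2 and 0.68 for Solyc08g062450. In TF18 against rin the values were -2.25 for Solyc08g062450, -1.99 for HSP21, -1.88 for Solyc08g062340, -1.74 for Solyc06g076570, -1.56 for Solyc09g015000, -1.46 for Solyc09g015020, -1.35 for Solyc06g076560, -0.85 for HSFA2, -0.70 for Solyc06g076540 and -0.17 for Solyc06g076520.

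TF18 was also compared with rin at 45 DAP. HSP21 had a log2 fold change of -3.55 (SE 1.66, adjusted p = 0.120 by limma) and was the 1 gene of the 10 with an unadjusted limma p under 0.05. None was called, where 12.3% of all genes were higher and 5.16% lower in TF18. The other log2 fold changes were -3.18 for Solyc06g076560, -1.99 for Solyc09g015000, -1.81 for Solyc06g076570, -1.65 for Solyc09g015020, -1.25 for Solyc06g076520, -0.23 for Solyc08g062340, 0.29 for Solyc06g076540 and 1.57 for HSFA2. Solyc08g062450 stood at -0.08, but at 0.27 with quantile normalization. Without rin replicate 1 HSP21 (-5.16, adjusted p = 0.0327 by limma) and Solyc06g076560 (-4.85, adjusted p = 0.0464 by limma) were called lower. Without rin replicate 3 HSFA2 was called higher (3.05, adjusted p = 0.0384 by limma).

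The order of the 6 groups differed between the plastid protein and the regulator. By the median of 3 libraries, HSP21 ran from 6.93 RPKM in the wild type at 35 DAP through 15.6 in TF18 at 35 DAP, 21.3 in TF18 at 45 DAP, 21.5 in rin at 35 DAP and 131 in rin at 45 DAP to 488 in the wild type at 45 DAP. HSFA2 ran from 6.13 RPKM in rin at 45 DAP through 13.2 in the wild type at 35 DAP, 28.3 in the wild type at 45 DAP, 50.4 in TF18 at 35 DAP and 59.0 in rin at 35 DAP to 99.8 in TF18 at 45 DAP. In both orders every neighbouring pair of groups overlapped.

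The 10 genes moved together from library to library. Over the 18 libraries, which all genes share, Pearson's r of log2(RPKM + 1) between pairs of the 9 small heat shock protein genes ran from 0.505 to 0.986 with a median of 0.908. For deviations from the group means, which leave out genotype and age, it ran from 0.765 to 0.993 with a median of 0.939. The closest pair was Solyc09g015000 and Solyc09g015020. The loosest was HSP21 and Solyc06g076540.

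HSFA2 followed some of the genes more closely than others. Its r over the 18 libraries was 0.879 with Solyc08g062450 and 0.864 with Solyc08g062340, but 0.520 with Solyc06g076560 and 0.431 with HSP21. For deviations from the group means its r was 0.829 to 0.943 with all 9, and 0.842 with HSP21. The highest library of HSFA2 was also that of HSP21 in TF18, rin and the wild type at 45 DAP and in the wild type at 35 DAP. In TF18 and rin at 35 DAP it was not, and HSFA2 was lowest in rin replicate 1, where HSP21 was highest.

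Other chaperones moved in the same libraries. A list of 20 HSP70, HSP90 and HSP101 identifiers had a mean log2(RPKM + 1) of 5.39 to 7.84 in TF18, 5.48 to 8.27 in rin and 5.73 to 7.65 in the wild type at 45 DAP. At 35 DAP it was 5.15 to 7.04 in TF18, 7.43 to 7.52 in rin and 6.36 to 7.88 in the wild type. For deviations from the group means the r of this level with the 10 genes ran from 0.844 for HSP21 to 0.987 for Solyc08g062450 over the 18 libraries.

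**Figure D2:**
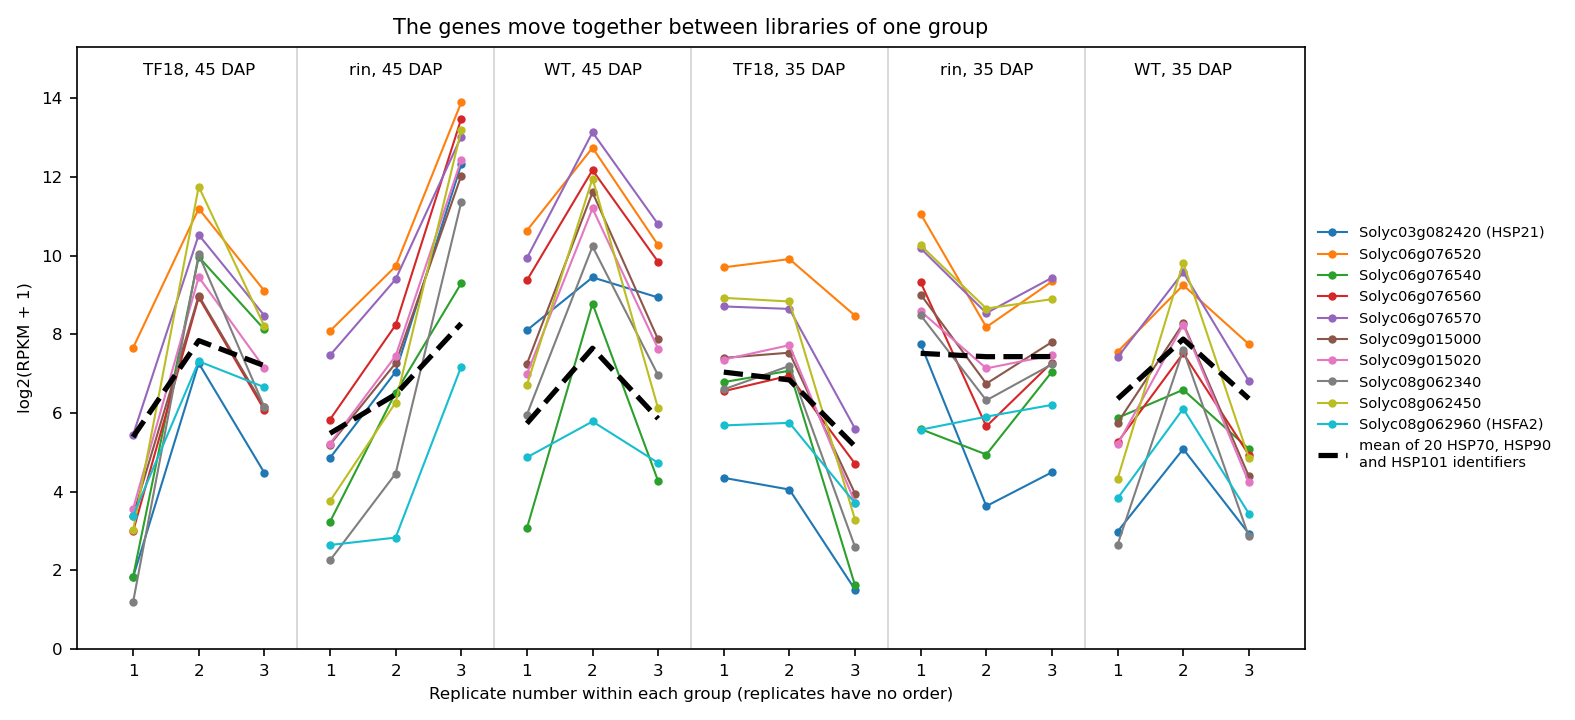
Level of each gene as log2(RPKM + 1) in the 18 libraries, grouped by genotype and days after pollination (DAP), with 1 colour for each gene, the mean of 20 HSP70, HSP90 and HSP101 identifiers as a dashed line, and replicate numbers that carry no order. All 10 genes and the dashed line peak in rin replicate 3 of 45 DAP, TF18 replicate 2 of 45 DAP and wild-type replicate 2 of both ages.

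Because of this shared movement, 2 further fits were made after the data were seen. The first took the mean level of the HSP70, HSP90 and HSP101 list in each library as a covariate. Its slope was fitted for each gene, so the changes are adjusted for that level and are not differences from the change of the list. The standard errors in the wild-type interval became 0.354 to 0.932, against 1.15 to 2.55 without the covariate. Of its 20 identifiers 5 were called lower in the wild type at 45 DAP than at 35 DAP, where 34.2% of all genes were.

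With this covariate 9 of the 10 genes were called higher in the wild type at 45 DAP than at 35 DAP, where 7.99% of all genes were. The log2 fold changes were 5.99 for HSP21 (SE 0.93, adjusted p = 6.63e-05 by limma), 5.47 for Solyc06g076560 (SE 0.79, adjusted p = 3.41e-05 by limma) and 1.30 for HSFA2 (SE 0.47, adjusted p = 0.0253 by limma). Solyc06g076540 was again the exception, at 0.66 (SE 0.79, adjusted p = 0.476 by limma).

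In rin 7 of the 10 were higher at 45 DAP than at 35 DAP in this fit, where 7.53% of all genes were called higher. HSP21 led with a log2 fold change of 4.10 (SE 0.95, adjusted p = 0.00505 by limma). The 3 genes that were not called were those on chromosome 8, with 0.80 for Solyc08g062340, 0.83 for Solyc08g062450 and -0.68 for HSFA2 (adjusted p from 0.156 to 0.382 by limma). In TF18 none of the 10 was called over this interval, where 0.629% of all genes were called higher and 0.203% lower.

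At 45 DAP 8 of the 10 were lower in TF18 than in the wild type in this fit, where 6.52% of all genes were called lower. HSP21 stood at -5.04 (SE 0.93, adjusted p = 0.000246 by limma) and Solyc06g076560 at -5.26 (SE 0.79, adjusted p = 3.92e-05 by limma). The exceptions were Solyc06g076540 (0.27, adjusted p = 0.774 by limma) and HSFA2 (0.10, adjusted p = 0.855 by limma). In rin 6 of the 10 were lower than in the wild type, where 3.63% of all genes were, and HSP21 was not among them (-1.36, SE 0.93, adjusted p = 0.237 by limma). The change between ages was smaller in TF18 than in the wild type for 8 genes (6.71% of all genes called lower) and in rin for 6 (3.32% of all genes called lower). HSP21 had a difference of -5.64 in TF18 (SE 1.33, adjusted p = 0.00287 by limma) and was not called in rin.

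The second fit took the mean level of 10 other small heat shock protein identifiers as a covariate, again with a slope fitted for each gene. It gives changes adjusted for that level, not differences from the change of those identifiers. HSP21 (2.94, SE 0.69, adjusted p = 0.00217 by limma), Solyc06g076560 (2.16, SE 0.47, adjusted p = 0.00121 by limma), Solyc06g076520 (1.32, SE 0.43, adjusted p = 0.0169 by limma) and Solyc06g076570 (1.32, SE 0.27, adjusted p = 0.000745 by limma) were higher in the wild type at 45 DAP. All genes called higher made up 7.57%. These are the 4 genes whose ages did not overlap in RPKM. Solyc06g076540 (-3.15, SE 0.97, adjusted p = 0.0123 by limma) and Solyc08g062450 (-1.65, SE 0.68, adjusted p = 0.0498 by limma) were lower, where 31.7% of all genes were.

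In the same fit HSP21 (-1.82, SE 0.70, adjusted p = 0.0341 by limma) and Solyc06g076560 (-1.79, SE 0.47, adjusted p = 0.00455 by limma) were lower in TF18 than in wild-type fruits at 45 DAP, where 6.38% of all genes were. Solyc06g076540 (4.25), Solyc08g062450 (3.39), HSFA2 (2.33) and Solyc08g062340 (1.77) were higher in TF18 (adjusted p from 0.000695 to 0.0145 by limma), where 37.5% of all genes were. HSP21 and Solyc06g076560 were called in the same directions, in both comparisons, with no covariate and with either one. These fits use the same libraries and are not independent of each other. In rin HSP21 alone was higher at 45 DAP than at 35 DAP with the second covariate (2.18, SE 0.65, adjusted p = 0.0190 by limma, with 7.96% of all genes called higher). The 3 genes on chromosome 8 were lower there (-2.50 to -2.08, adjusted p from 0.00552 to 0.00847 by limma; 9.38% of all genes called lower).

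Other comparisons also gave calls in these fits. With the HSP70, HSP90 and HSP101 level as a covariate, 3 genes were higher in TF18 than in green wild-type fruits at 35 DAP (3% of all genes called higher). They were Solyc08g062340 (2.64), Solyc08g062450 (2.41) and Solyc09g015020 (1.60). In TF18 against rin at 45 DAP, HSFA2 was higher (1.47; 13.1% of all genes called higher) and 5 genes were lower (5.56% of all genes called lower), led by HSP21 (-3.67) and Solyc06g076560 (-3.32).

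With the other small heat shock protein level as a covariate, 5 genes were higher in TF18 than in wild-type fruits at 35 DAP (3.09% of all genes called higher). They were those on chromosomes 8 and 9 other than HSFA2, and Solyc06g076520 (1.94). In TF18 against rin, HSFA2 (2.99), Solyc06g076540 (2.84), Solyc08g062340 (2.92) and Solyc08g062450 (3.33) were higher at 45 DAP (11.4% of all genes called higher), and Solyc06g076520 (1.56) at 35 DAP (2.47% of all genes called higher). The change between ages was lower in rin than in wild-type fruits for Solyc06g076570 (-1.29) and Solyc08g062340 (-2.26; 3.15% of all genes called lower). In TF18 it was lower for 5 genes (6.25% of all genes called lower), HSP21 (-2.46), Solyc06g076560 (-3.03), Solyc06g076520 (-1.93), Solyc06g076570 (-1.50) and Solyc09g015000 (-1.23), and higher for Solyc06g076540 (3.75; 33.2% of all genes called higher).

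**Figure D3:**
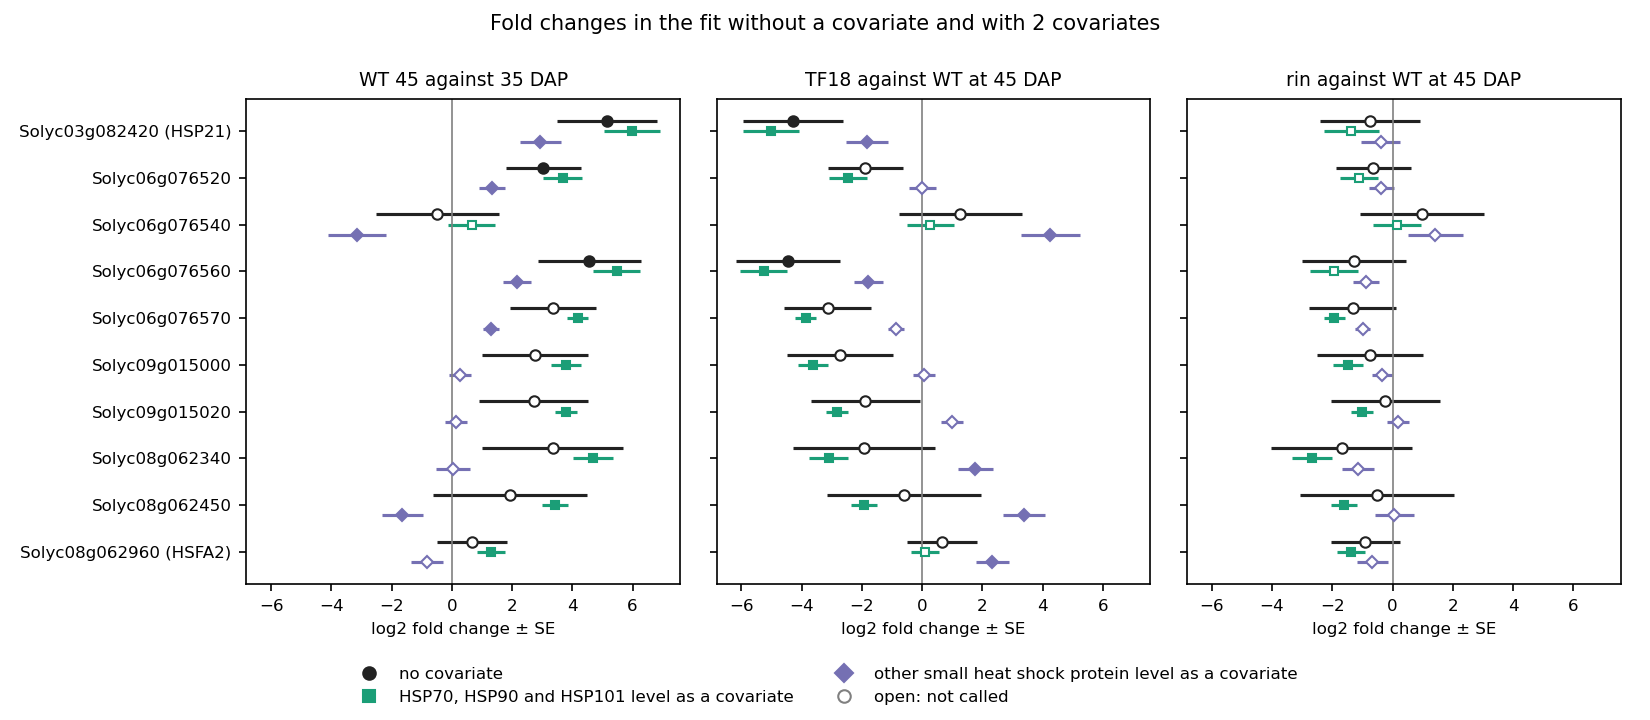
Log2 fold changes with standard errors for the 10 genes in 3 comparisons, without a covariate (circles), with the HSP70, HSP90 and HSP101 level as a covariate (squares) and with the other small heat shock protein level as a covariate (diamonds), where filled symbols were called and open ones were not. HSP21 and Solyc06g076560 are filled in all 3 fits for the wild type between ages and for TF18 against the wild type, while Solyc08g062450 changes sign between fits.

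HSP21 was also set against Solyc08g062450 within each library. The pair was chosen after the values were seen, so the ratios are a description, and they move with the level of Solyc08g062450 itself. HSP21 stood at 0.359, 0.0443 and 0.0724 times the RPKM of Solyc08g062450 in TF18 at 45 DAP, at 2.23, 1.73 and 0.548 times in rin and at 2.64, 0.175 and 7.15 times in the wild type. At 35 DAP the ratios were 0.04002, 0.0343 and 0.211 in TF18, 0.175, 0.0284 and 0.0454 in rin and 0.362, 0.0366 and 0.237 in the wild type.

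In rin the 3 later libraries all had a higher ratio than the 3 green ones. In the wild type and TF18 the ages overlapped. In TF18 and rin at 45 DAP and in the wild type at both ages, the library with the most Solyc08g062450 had the lowest ratio. In TF18 and rin at 35 DAP it did not.

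**Figure D4:**
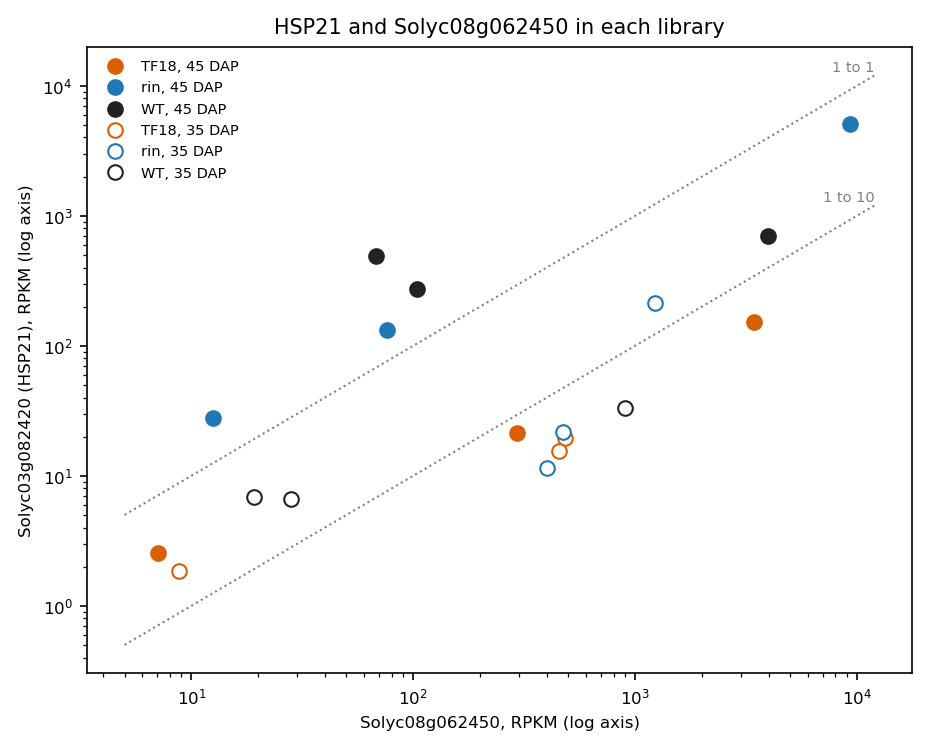
HSP21 against Solyc08g062450 in each library, both in RPKM on log axes, with filled points for 45 DAP, open points for 35 DAP and dotted lines at ratios of 1 to 1 and 1 to 10. All 3 rin libraries of 45 DAP lie above the ratios of the rin libraries of 35 DAP, and the TF18 libraries of 45 DAP, at ratios of 0.0443 to 0.359, lie within the range of the green libraries.

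Beyond the 10 genes, the identifiers whose log2 levels were most like them over the 18 libraries were found among all genes tested. Most like HSP21 were Solyc03g113930 (r = 0.971), which is in the list of other small heat shock proteins, and Solyc11g020040 (r = 0.954), which is in the HSP70, HSP90 and HSP101 list. Solyc03g113930 averaged 18.04 RPKM ± 28.3 in TF18, 429 ± 722 in rin and 255 ± 192 in the wild type at 45 DAP (SD, n = 3 each). At 35 DAP it averaged 2.88 RPKM ± 2.43 in TF18, 17.4 ± 19.5 in rin and 6.28 ± 4.22 in the wild type (SD, n = 3 each).

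Most like HSFA2 were Solyc03g123560 (r = 0.940) and Solyc06g069820 (r = 0.927), and most like Solyc06g076520 were Solyc04g078600 (r = 0.952) and Solyc06g071920 (r = 0.9503). None of these 4 is in the lists, and the files do not annotate them. Among the 50 identifiers most like HSP21 were 3 others of the 10 genes, 3 of the other small heat shock proteins and 1 of the HSP70, HSP90 and HSP101 list. Among the 50 most like HSFA2 these numbers were 2, 2 and 5.

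The wider heat shock pathway was described by lists of identifiers written down from general knowledge, which the files do not annotate. Of the 10 other small heat shock protein identifiers, 3 were called higher and none lower in the wild type at 45 DAP than at 35 DAP, and their log2 fold changes had a median of 2.04. Over all genes 7.54% were called higher and 34.2% lower in that interval, with a median of -0.58. In TF18 against the wild type at 45 DAP none was called higher and 2 lower, with a median of -2.35. Over all genes 40.3% were called higher and 6.19% lower there, with a median of 0.75. In rin against the wild type at 45 DAP none was called, with a median of -0.35 beside 0.49.

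Of 19 heat stress transcription factor identifiers, 17 were tested. In the wild-type interval 6 were called higher and 1 lower (median 0.37, beside -0.58, 7.54% higher and 34.2% lower over all genes). In TF18 against the wild type at 45 DAP 2 were higher and 6 lower (median -0.26, beside 0.75, 40.3% higher and 6.19% lower over all genes). HSFA2 was not called in either comparison. Of the 20 HSP70, HSP90 and HSP101 identifiers, none was called higher and 5 lower in the wild-type interval, near the 34.2% of all genes called lower, and their median of -0.63 lay near the -0.58 of all genes. In TF18 against the wild type at 45 DAP 7 were higher and none lower, near the 40.3% of all genes called higher, with a median of 0.29 beside 0.75.

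Seeds make small heat shock proteins, and sliced fruits can hold seeds, so 13 storage protein and oleosin identifiers were followed as seed markers. Their summed level was 17.6 to 3574 RPKM in TF18, 438 to 1647 in rin and 202 to 4122 in the wild type at 45 DAP. At 35 DAP it was 34.5 to 8167 RPKM in TF18, 8249 to 64672 in rin and 18583 to 56114 in the wild type. In the wild-type interval 8 of the 13 were called lower, where 34.2% of all genes were, and none higher (median -5.32 beside -0.58), the opposite sign to HSP21 and the 2 chromosome 6 genes that rose. In TF18 replicate 2 of 45 DAP, where all 10 genes were highest in their group, the seed markers summed to 30.9 RPKM, with 5 of 13 at 1 RPKM or more and 2 at 0. In rin replicate 3 of 45 DAP they summed to 479 RPKM, with 12 at 1 RPKM or more and 1 at 0, within the range of the other rin libraries of that age. Wild-type replicate 2 of 45 DAP, also highest for all 10 genes, held the highest seed sum of its group (4122 RPKM, against 202 and 563). At 35 DAP wild-type replicate 2 lay between the others, at 28845 RPKM. The libraries lowest for all 10 genes also held the lowest seed sums of their groups. These were replicate 1 of TF18 (17.6 RPKM) and of rin (438 RPKM) at 45 DAP. The other was replicate 3 of TF18 at 35 DAP (34.5 RPKM, with 36.4 in replicate 2). The part of seed RNA in the results was not tested.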

How the data were processed

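RNA was measured in 18 fruit libraries, 3 in each of 6 groups, with groups and replicate numbers taken from the titles. The authors deposited 1 table of RPKM values for 35802 identifiers, with 1 column per library and 0 columns left without a sample, per the file headers. CASAVA 1.8.1 and Bowtie2, of no stated version, are named in the submitters' processing notes. The genome build is not given in the sources used here, nor is the annotation or the counting program. In the RefSeq table of genes in assembly SLM_r2.1, 0 of the identifiers were found, and sequences were not analysed here.

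RPKM values divide by the library total, so they show shares of RNA and not amounts per fruit. Reads and coding lengths were solved from the whole steps of the RPKM values, with a tolerance of 0.02 reads, for all 28612 genes with a value above 0. On simulated data 734 of 747 genes and all 18 totals were returned exactly.

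Tests used limma 3.58.1 in R 4.3.3 on log2(RPKM + 1), with 1 model of 6 group means, variances moderated along a trend and Benjamini-Hochberg adjustment over the 20658 genes that reached 1 RPKM in 3 or more libraries. Genes count as called where the adjusted p was below 0.05 and the log2 fold change was 1 or more in size. On this scale low genes show too small a change. Pairwise comparisons numbered 9, and 2 more tested differences between changes. Alternatives were pseudocounts of 0.25 and 5 RPKM, no filter and a filter at 5 RPKM, TMM-type and quantile scaling, only the compared groups, library weights, each library left out, a replicate block and the 2 covariates. Python 3.11.15, pandas 2.3.3, numpy 2.4.6 and, for the plots, matplotlib 3.10.9 did the rest.

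The 10 genes and the lists were chosen with earlier results of these data known. By rule all 10 are named in each pairwise comparison and difference without a covariate, with at most 2 identifiers most like each of HSP21, HSFA2 and Solyc06g076520 by Pearson's r, and those of RIN, FUL1 and FUL2. To check whether equal replicate numbers pair libraries, deviations from the group mean were correlated between them. All 3 pairs exceeded 0.1 only for TF18 and the wild type at 35 DAP (0.284 to 0.470), where the labels name no shared source, and the block changed no call there.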

Additional observations from a re-analysis of the deposited data

How the results depend on the processing

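Under the alternatives other than the covariates, 1735 log2 fold changes of the 10 genes stayed called or stayed uncalled. The call was lost by 18 and gained by 17, and 0 reversed. Uncalled values count as unchanged whatever their sign, and over all alternatives 174 that were called neither before nor after changed sign. The HSP21 rise in the wild type kept its call under every one of these alternatives. Leaving out 1 library gave 1 to 4 genes higher in the wild-type interval, 0 to 3 lower in TF18 against the wild type at 45 DAP, 0 to 1 lower in the rin interval, 0 to 1 higher and 0 to 2 lower in TF18 against rin at 45 DAP, and 0 to 1 whose change was lower in rin than that in the wild type. Only HSP21 was called in the wild-type interval without replicate 1 or 3 of 35 DAP or replicate 2 of 45 DAP. Library weights gave 1 gene lower in the rin interval, 1 higher and 1 lower in TF18 against rin at 45 DAP, and 2, HSP21 (-4.50) and Solyc06g076560 (-4.69), whose change was lower in TF18. The replicate block left the counts at 3 higher in the wild-type interval and 2 lower in TF18 against the wild type, but in the wild-type interval Solyc06g076520 lost its call (limma adjusted p = 0.0532) and Solyc06g076570 gained one (limma adjusted p = 0.0483). The numbers are not shown to pair these libraries.

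The covariates, added after seeing the data, changed the most. With the HSP70, HSP90 and HSP101 level, genes called numbered 9 higher in the wild-type interval, 7 higher in the rin interval, 6 lower in rin and 8 lower in TF18 against the wild type at 45 DAP, 3 higher in TF18 against the wild type at 35 DAP, 1 higher and 5 lower in TF18 against rin at 45 DAP, and a change below the wild-type one for 6 genes in rin and 8 in TF18. With the other small heat shock protein level they numbered 4 higher and 2 lower in the wild-type interval, 1 higher and 3 lower in the rin interval, 4 higher and 2 lower in TF18 against the wild type at 45 DAP and 5 higher at 35 DAP, 4 higher in TF18 against rin at 45 DAP and 1 higher at 35 DAP, and a change below the wild-type one for 2 in rin and 5 in TF18 and above it for 1 in TF18. Reversed values, all with the other small heat shock protein level, were -1.65 for Solyc08g062450 in the wild-type interval, 1.77 for Solyc08g062340 and 3.39 for Solyc08g062450 in TF18 against the wild type at 45 DAP, 2.92 for Solyc08g062340 and 3.33 for Solyc08g062450 in TF18 against rin at 45 DAP, and 1.56 for Solyc06g076520 in TF18 against rin at 35 DAP. The cause of these changes was not tested, and the covariate fits were not repeated with libraries left out. The lowest RPKM value rested on 8 reads, so counting error is large only for the lowest values, and the spread between libraries limits the rest.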
